A study of Mus musculus with 6 samples.

Results

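Transcripts of the core spliceosome, the machine that removes introns from new RNA, were compared between control and ethylparaben-exposed mouse embryos. Genes were taken by name: symbols that begin with Snrp, Sf3 or Prpf, the genes Lsm1 to Lsm8, and Zcrb1, a protein of the minor spliceosome. Zcrb1 is the only one listed by its own symbol, and it had already been seen among the largest increases in these libraries. Its values are therefore given as a description without a p-value. It enters the counts of members unless they are given without it. The rule found 44 of 55549 rows, 43 protein-coding genes and Snrpert, a processed copy of Snrpe; 2 pseudogene rows with -ps in their symbol were left out. By particle these are 8 genes of the Sm ring, 5 of U1, 11 of U2, 3 of U4/U6, 8 of the LSm rings, 2 of U5, 5 that act in activation and catalysis, Zcrb1 of U11/U12 and Snrpert.

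The embryos were collected at the early 2-cell stage, when the mouse embryo begins to replace RNA stored in the egg with its own. One group, EtP, had been moved at 4 h after fertilization into culture medium with 40 uM ethylparaben, a paraben preservative; the other was the control. The series states that exposed embryos mostly stopped at this stage. There were 3 libraries per group. The labels do not give the strain, the embryos per library, the hour of collection or the medium of the controls. They also do not say whether replicate libraries are separate cultures, so p-values refer to library-to-library spread, part of which may be technical.

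The spliceosome is built anew on each intron from small nuclear ribonucleoproteins, each a short RNA with its proteins. U1 marks the start of the intron and U2 its branch site. The U4/U6.U5 tri-snRNP then joins, U1 and U4 leave, and U2, U6 and U5 form the active centre. A ring of Sm proteins sits on the RNAs of U1, U2, U4 and U5, and a ring of LSm proteins on U6. A second, minor spliceosome with U11 and U12 in place of U1 and U2 removes a small class of introns. The snRNAs have no poly(A) tail and are outside a library primed with oligo-dT, so all values here are for the mRNAs of the proteins.

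Libraries held 11173295 to 14737152 estimated counts. At least 1 count was found for 25971 to 26103 genes in control and for 19321 to 19713 in EtP libraries. Of 8 markers of the egg and early embryo 6 were higher in EtP, with a summed level of 4829 to 6099 CPM (counts scaled to library size, as below) in control and 17340 to 19130 in EtP. The 5 markers of the 2-cell stage were all lower, at 180 to 240 CPM and 8.07 to 9.86 CPM. Markers of other cells were low. Those of cumulus and granulosa cells summed to 17.3 to 42.5 CPM in control and 17.4 to 19.2 in EtP, with Ptx3 at 0, and 3 of the 5 tested were lower. Sperm markers summed to 5.84 to 12.9 and 2.9 to 3.43 CPM, with Tnp1 and Smcp at 0, fibroblast markers to 0.24 to 0.909 and 0.414 to 0.772 CPM, with Col3a1 at 0, and blood markers to 0.846 to 2.92 and at most 0.0965 CPM, with Hbb-bs at 0. The only tested gene of the sperm list and of the blood list was lower in each case. The part of these differences in the results below was not tested. In such bulk samples fewer cells that hold an RNA and less of it per cell cannot be told apart.

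Members were called in both directions. In the LSm rings 5 of 8 genes were lower in EtP embryos. Of the 4 tested U1 genes that the name rule found 2 were lower. Among U2 genes Sf3b1, Sf3b2 and Sf3a3 were higher and Sf3b4 and Sf3b5 lower, with 6 more that did not pass. Prpf3 of U4/U6 and Prpf6 of U5 were higher. Of 43 members tested 7 were higher and 11 lower by edgeR's quasi-likelihood test at a Benjamini-Hochberg adjusted p of 0.05 over all genes, or 6 and 11 without Zcrb1. Among all 14373 tested genes 12.5% were higher and 18.1% lower, 30.6% in all. The share of members called was thus not far from that of all genes in either direction, at 16.3% and 25.6%. Their median log2 fold change was -0.09, beside -0.19 for all tested genes. In 9 members all EtP libraries were above all control libraries in CPM, and in 14 all were below, where 19.0% and 27.9% of tested genes did so. In deposited TPM, which is per transcript length and not TMM-scaled, 5 were above and 24 below, beside 6.74% and 50.4%. Prpf40b, a U1-associated protein, had at most 0.884 CPM in any library and was the member left out by the filter on low counts.

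**Figure D1:**
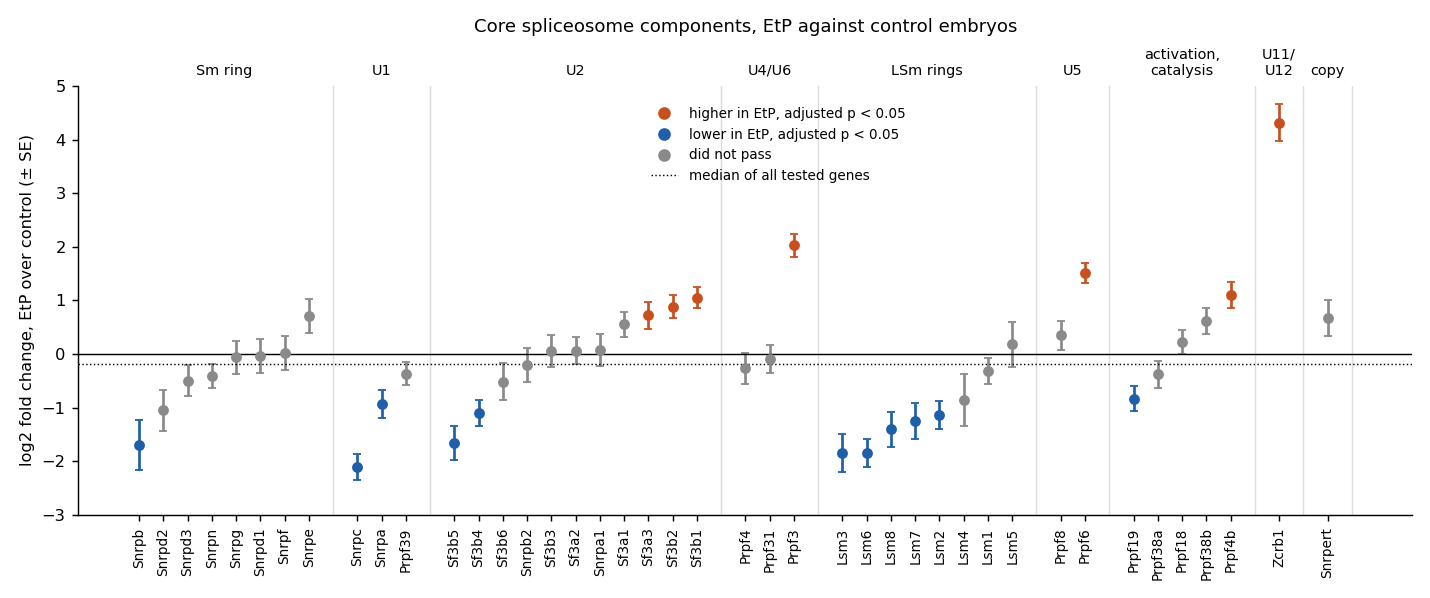
Log2 fold change of tested members in EtP over control embryos, with its standard error (3 libraries per group), grouped by particle; colour marks the call and the dotted line the median of all tested genes at -0.19. The LSm rings hold 5 lower genes and no higher one, while the U2 proteins spread from -1.66 to 1.05.

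The counts rest on scaling and on single libraries. Leaving out control replicate 1 gave 13 higher members with the lower count at 11, and leaving out EtP replicate 1 gave 6 and 5. When libraries were scaled by their totals alone, which moved the median of all tested genes to -0.92, 3 members were higher and 24 lower, and 3.79% and 53.0% of all tested genes. Of the 6 higher members other than Zcrb1, Prpf3 and Prpf6 stayed higher in that scaling. It moved every member down, so the lower calls are not tested by it. Directions below are those of the main scaling, TMM, which assumes that most genes do not differ.

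**Figure D2:**
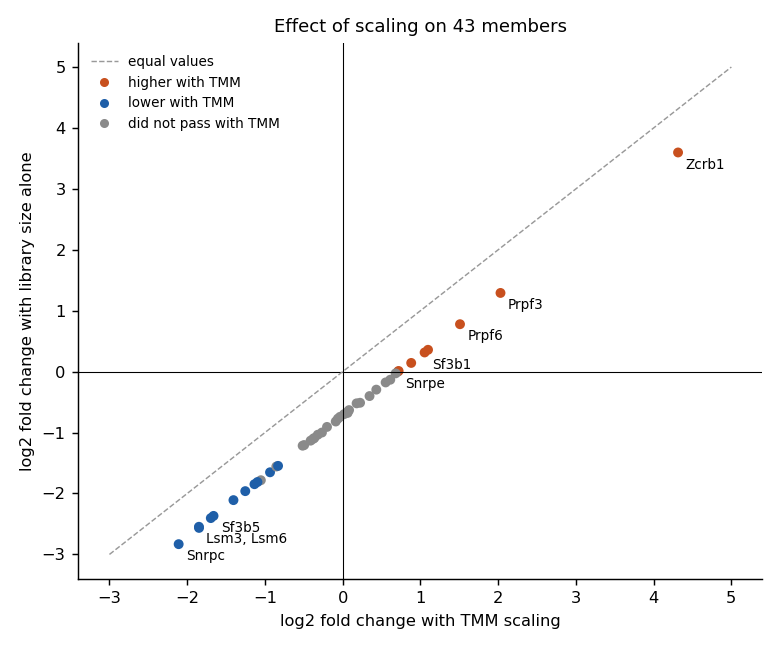
Log2 fold change of the 43 tested members with TMM scaling (horizontal axis) and with library size alone (vertical axis); each point is a gene, coloured by its call with TMM, and the dashed line marks equal values. Points lie on a line below the dashed one, and Zcrb1, Prpf3 and Prpf6 lie between 0.78 and 3.60 on the vertical axis.

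Promoters of members with the largest increases and decreases are shown here, because these genes carry the clearest differences. Of 6 windows looked at, those of Zcrb1, Snrpc and Lsm3 hold more than 30 bases annotated as UTR and are not printed. Each is the 250 bases before the most upstream start site of the gene in RefSeq on GRCm38.p6, written 5′ to 3′ along the gene. Capitals mark a match to any of 8 motifs searched on both strands.
Prpf3 (chr3:95855886-95856135, minus strand): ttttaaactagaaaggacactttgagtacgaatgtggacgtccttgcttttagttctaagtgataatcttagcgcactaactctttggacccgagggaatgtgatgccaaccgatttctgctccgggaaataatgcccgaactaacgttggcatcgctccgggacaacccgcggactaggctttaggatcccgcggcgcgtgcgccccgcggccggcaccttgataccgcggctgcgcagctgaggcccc
Prpf6 (chr2:181601069-181601318, plus strand): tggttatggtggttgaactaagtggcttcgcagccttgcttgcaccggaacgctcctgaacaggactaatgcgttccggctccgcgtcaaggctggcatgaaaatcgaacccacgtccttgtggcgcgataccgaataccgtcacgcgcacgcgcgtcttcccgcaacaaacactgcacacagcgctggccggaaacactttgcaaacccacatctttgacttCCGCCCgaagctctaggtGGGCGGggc
Lsm6 (chr8:78821153-78821402, minus strand): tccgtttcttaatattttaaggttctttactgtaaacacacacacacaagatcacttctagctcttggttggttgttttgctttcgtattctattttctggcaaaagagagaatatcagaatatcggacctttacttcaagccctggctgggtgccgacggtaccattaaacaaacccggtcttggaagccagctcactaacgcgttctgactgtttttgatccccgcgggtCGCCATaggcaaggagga
The window of Prpf6 lies inside the gene as GENCODE M21 draws it, since the GENCODE start is further upstream than the RefSeq one; the same holds for the window of Snrpc. The motifs were CCAAT (bound by NF-Y), GGGCGG (the GC box), CCGGAAG (ETS factors), the palindromic NRF1 motif, TGACGTCA (CRE), CACGTG (E-box), ATGGCG (YY1) and TAATCC (bicoid-type homeobox), and matches can overlap. The promoter of Zcrb1 held 3 overlapping GC boxes and an ETS motif, that of Prpf6 held 2 GC boxes and that of Prpf3 no match. Snrpc held an ETS motif and 2 TAATCC motifs, Lsm3 held 3 GC boxes and Lsm6 a match to ATGGCG. A promoter was on file for 35 members. The ETS motif was in 13 of these (37.1%), against 13.7% of the promoters of 9936 tested genes and 7.1% of all 27025. It was in 4 of 7 higher (Zcrb1 among the 4), 2 of 8 lower and 7 of 19 members without a call. GC boxes were in 57.1% of members and 55.0% of promoters of tested genes, and CCAAT in 40.0% and 37.7%. For the other motifs the shares in members and in promoters of tested genes were 0.0% and 1.6% (NRF1), 5.7% and 2.6% (CRE), 8.6% and 8.3% (E-box), 11.4% and 8.8% (YY1) and 11.4% and 5.6% (TAATCC).

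The LSm rings had the most one-sided values. LSm2 to LSm8 form the ring that binds the end of U6, and LSm1 takes the place of LSm8 in a cytoplasmic ring that binds mRNA about to be decapped. Of 8 genes 5 were lower and 0 higher by edgeR (median -1.19), and the share of all genes called lower was 18.1%. It was 29.1% for genes with effective lengths (defined below) of 500 to 1000 bases, where Lsm2, Lsm3, Lsm4 and Lsm8 lie. For genes under 500 bases, where Lsm5 and Lsm7 lie, it was 32.6%. At an unadjusted p below 0.05 no gene of the rings was higher either, and DESeq2 gave the same 5 and 0. Lsm6 had 84.9, 57.3 and 47.7 CPM in the control libraries and 18.9, 18.5 and 15.4 CPM in the EtP libraries. Every EtP value lay below every control value, and the log2 fold change was -1.85 ± 0.27 (SE; edgeR adjusted p = 0.000649), 3.6-fold lower. The gene lies on chr8:78804865-78821140 of mm10.

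Lsm3 had 101, 53.7 and 36.8 CPM in control and 15.2, 21.4 and 16.4 CPM in EtP (log2 fold change -1.85 ± 0.35; edgeR adjusted p = 0.00325). Lsm2 had 78.3, 50.6 and 44.3 CPM in control and 25.6, 28.4 and 24.9 CPM in EtP (-1.13 ± 0.26; edgeR adjusted p = 0.00788). Lsm7 had 72.9, 40.6 and 34.8 CPM in control and 16.4, 28.5 and 17.4 CPM in EtP (-1.25 ± 0.33; edgeR adjusted p = 0.0162). In each of these genes the groups did not overlap. Control replicate 1 had the highest CPM of the 6 libraries in all 8 genes of the rings. Lsm8, the subunit that is found only in the nuclear ring, had 18.1, 11.8 and 8.83 CPM in control and 3.86, 5.97 and 4.8 CPM in EtP (-1.40 ± 0.33; edgeR adjusted p = 0.00912). Lsm1, the subunit particular to the cytoplasmic ring, was at 84.7 ± 24.2 CPM in control and 67.9 ± 6.0 in EtP (SD, n = 3), with a log2 fold change of -0.32 ± 0.25 that did not pass (edgeR adjusted p = 0.35). Lsm4 and Lsm5 did not pass either. Both were rare, at 1.75 ± 0.524 and 4.76 ± 3.11 CPM in control.

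On the deposited TPM scale, which divides by transcript length, the 8 genes together had 799 ± 212 TPM in control and 210 ± 23.8 in EtP (SD, n = 3). Their order in control was Lsm7, Lsm3, Lsm2, Lsm6, Lsm1, Lsm8, Lsm5 and Lsm4, from 227 to 4.27 TPM. Neighbours in that order lay within each other's spread at the top of it, Lsm7 at 227 ± 50 and Lsm3 at 194 ± 64.7 TPM. In EtP Lsm7 was again first at 62.7 ± 18.1 TPM. Lsm6 was at 13.5 ± 1.36 TPM, below Lsm1 at 29.4 ± 3.83 and Lsm5 at 15.3 ± 1.08 TPM. The mean effective length assigned to Lsm6 was 1019 bases in control and 1356 in EtP, against 357 and 364 for Lsm5. A longer length lowers TPM, and its part in this order was not tested. Shares of the TPM sum over these 8 genes do not depend on how libraries are scaled, but they do depend on the assigned lengths. Lsm6 made up 13.2% ± 2.4 in control and 6.52% ± 1.37 in EtP, and Lsm1 7.86% ± 0.583 and 14.2% ± 3.38. Without EtP replicate 1 the count of lower genes was 2, Lsm3 and Lsm6, and without EtP replicate 3 it was 4, with Lsm7 at an edgeR adjusted p of 0.0795. Without control replicate 1 it was 5, with Lsm5 as 1 higher gene.

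**Figure D3:**
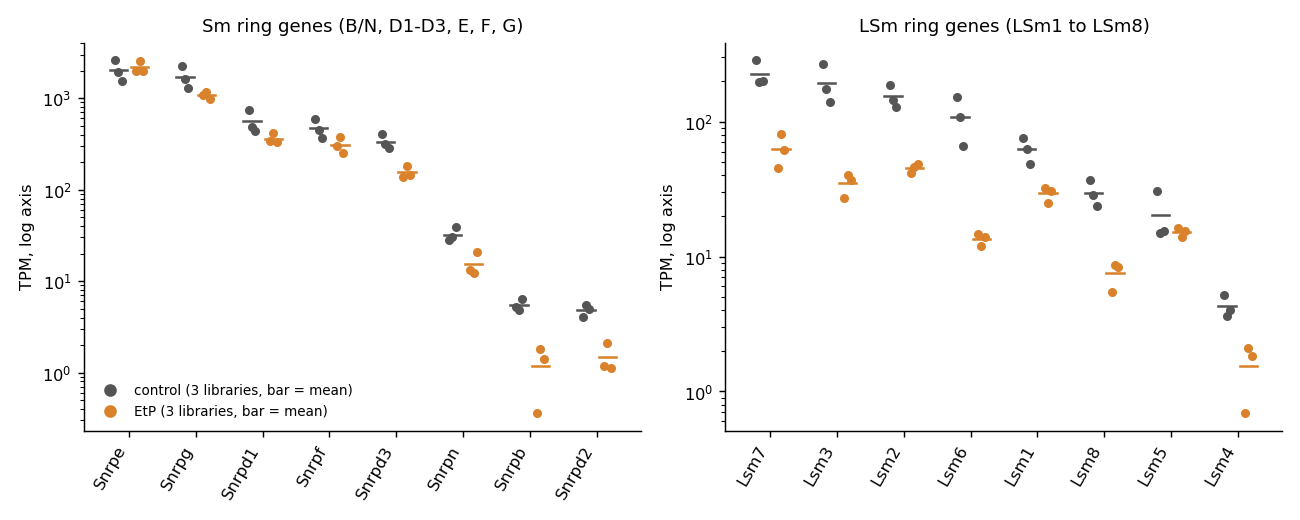
TPM of the Sm ring genes (left) and the LSm ring genes (right) in each library on a log axis; grey points are the 3 control and orange points the 3 EtP libraries, bars their means, and genes are ordered by control mean. Snrpe overlaps between groups, from 1536 to 2594 TPM. In 7 of the 8 LSm genes and 6 of the 8 Sm genes every EtP library lies below every control library. On this scale 50.4% of all tested genes do so.

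Sm ring genes mostly did not pass. The ring holds B (or its close relative N), D1, D2, D3, E, F and G, and is loaded onto the snRNAs in the cytoplasm. Of 8 genes 1 was lower, Snrpb, or 12.5%, beside 18.1% of all tested genes, and 0 were higher by edgeR. The median log2 fold change was -0.24. DESeq2 gave the same counts, and at an unadjusted p below 0.05 edgeR gave 2 lower and 0 higher. Their summed TPM was 5148 ± 1355 in control and 4095 ± 551 in EtP (SD, n = 3), a ratio of 0.796 that turned to 1.21 when scaled CPM per kb was summed in its place. Snrpb, which encodes SmB, was rare, with 3.96, 2.7 and 3.31 CPM in control and 0.386, 1.44 and 1.24 CPM in EtP (-1.70 ± 0.46; edgeR adjusted p = 0.0177), and it did not pass when EtP replicate 1 was left out (edgeR adjusted p = 0.0736). Its relative Snrpn was the more abundant of the pair, at 32.3 ± 5.78 TPM against 5.46 ± 0.794 TPM for Snrpb in control, and at 15.4 ± 4.51 and 1.19 ± 0.752 TPM in EtP (SD, n = 3). Snrpn shares 589 exon bases with Gm38393 and 216 with Snurf, read in the same direction, so its counts depend on how reads were divided between them.

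Snrpe was the most abundant member of all, with 2594, 1930 and 1536 TPM in the control libraries and 1998, 2561 and 1963 TPM in the EtP libraries. The groups overlapped. In CPM it had 725, 436 and 291 in control and 783, 983 and 610 in EtP, a log2 fold change of 0.71 ± 0.32 that did not pass (edgeR adjusted p = 0.119). It passed with control replicate 1 left out, at 1.21 (edgeR adjusted p = 0.00327), and with no filter on low counts (edgeR adjusted p = 0.0273), and with library size alone it was -0.00. Snrpg followed at 1722 ± 489 TPM in control and 1076 ± 98.6 in EtP. Snrpd1, Snrpf and Snrpd3 came next, at 557 ± 169, 470 ± 111 and 336 ± 61.1 TPM in control, and the libraries of neighbours in this order overlapped. Snrpf shares 567 of its 861 exon bases with Ccdc38 on the other strand, and the library protocol marks no strand. At the low end Snrpd2, the SmD2 gene, had 4.84 ± 0.709 TPM in control and 1.47 ± 0.558 in EtP. The highest and lowest genes of the ring were 418-fold apart in control (Snrpe over Snrpd2) and 1822-fold apart in EtP (Snrpe over Snrpb, which was at 0.36 TPM in EtP replicate 1). Within the ring Snrpe made up 39.2% ± 0.689 of the summed TPM in control and 53.0% ± 1.38 in EtP, and Snrpg 33.3% ± 0.669 and 26.4% ± 1.63 (SD, n = 3). These shares do not depend on library scaling, and the groups did not overlap in either.

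Reads of several of these short genes can also match processed copies elsewhere in the genome. Copies with at least 95% identity over at least 50% of the coding sequence were found for 12 of 43 members, 23 copies in all. Snrpert, on chromosome 2, is such a copy of Snrpe. Snrpert had 290, 219 and 178 TPM in control and 211, 287 and 236 TPM in EtP, and a log2 fold change of 0.68 ± 0.34 (edgeR adjusted p = 0.148), which passed with control replicate 1 left out (edgeR adjusted p = 0.00487). Of the counts of Snrpe and this copy together, 4.39% to 4.51% were in the copy in control and 4.26% to 4.46% in EtP. Copies of Snrpg, among them Gm8186 with an identical coding sequence of 228 bases, held 9.17% to 10.9% of the combined counts in control and 10.9% to 11.7% in EtP. Gm13092 held 8.06% to 9.38% and 6.91% to 12.3% of those of Snrpf. With copies added to their parents the members gave 7 higher and 12 lower, the added one being Snrpd2 (edgeR adjusted p = 0.0499, against 0.056 alone).

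Proteins particular to U1 gave calls in both directions. U1 carries the proteins U1-70K, U1-A and U1-C; Snrpa encodes U1-A and Snrpc encodes U1-C, which contacts the pairing of U1 with the start of the intron. Snrpc had 28.8, 23.6 and 25.8 CPM in control and 5.6, 5.86 and 6.63 CPM in EtP. The groups were far apart, with a log2 fold change of -2.11 ± 0.24 (edgeR adjusted p = 0.000138), 4.32-fold lower and the largest decrease among members. The gene lies on chr17:27838150-27851968 of mm10. Snrpa was at 14.7 ± 3.37 CPM in control and 7.71 ± 0.817 in EtP (-0.93 ± 0.26; edgeR adjusted p = 0.021), a call that was lost without control replicate 2 or without any of the EtP libraries (edgeR adjusted p = 0.0567 to 0.112). Prpf39, a U1-associated protein, did not pass, at -0.36 ± 0.21. Of other U1-associated genes on a fixed list 3 of 6 were higher, or 50%, beside 12.5% of all tested genes. Snrnp70, which encodes U1-70K, rose from 88.9 ± 30.3 to 308 ± 72.5 CPM (1.79 ± 0.30, edgeR adjusted p = 0.00147). Rbm25 rose by 0.89 ± 0.21, but with library size alone it was at 0.16 and did not pass (edgeR adjusted p = 0.49).

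Genes of U2 were called in both directions. SF3a and SF3b are the complexes that hold U2 on the branch site; SF3B1 is the large scaffold around the branch helix. The test called 3 of 11 genes higher and 2 lower, or 27.3% and 18.2%, beside 12.5% and 18.1% of all tested genes. Their median of 0.06 turned to -0.66 with library size alone. DESeq2 gave 4 higher and 2 lower, the added one being Sf3a1 (DESeq2 adjusted p = 0.0348). Sf3b1 had 269, 327 and 333 CPM in control and 677, 604 and 648 CPM in EtP, with no overlap between groups (1.05 ± 0.20; edgeR adjusted p = 0.00292). It lies on chr1:54985169-55027481 of mm10. In TPM the libraries had 223, 359 and 339 in control and 455, 368 and 444 in EtP, which leaves EtP replicate 2 close to the highest control. Sf3b2 rose from 48.2 ± 8.25 to 88.7 ± 7.02 CPM (0.88 ± 0.22; edgeR adjusted p = 0.0115). Sf3a3 rose from 67.5 ± 20.2 to 111 ± 4.62 CPM (0.72 ± 0.25; edgeR adjusted p = 0.0471), close to the threshold, and it did not pass once control replicate 2 or 3 or any EtP library was left out (edgeR adjusted p = 0.0918 to 0.133). None of the 3 calls held with library size alone.

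Of the other SF3b subunits Sf3b4 and Sf3b5 were lower. Sf3b5 had 21.5, 14 and 12.1 CPM in control and 3.86, 6.08 and 5.13 CPM in EtP (-1.66 ± 0.31; edgeR adjusted p = 0.00281). Sf3b4, which contacts the RNA beside the branch site, had 30.9, 24.4 and 24.6 CPM in control and 12.4, 10.3 and 14.7 CPM in EtP (-1.10 ± 0.24; edgeR adjusted p = 0.00665). In both genes the groups were apart, and both calls held in every alternative tried. Sf3b6, which touches the branch-site adenosine, did not pass at -0.51 ± 0.34, and neither did Sf3b3 at 0.06 ± 0.30. SF3a subunits Sf3a1 and Sf3a2 did not pass at 0.55 ± 0.23 and 0.06 ± 0.25, and Sf3a2 shares 429 exon bases with the more abundant Plekhj1 on the other strand. The U2-specific proteins Snrpa1 (U2-A') and Snrpb2 (U2-B'') were at 0.08 ± 0.30 and -0.20 ± 0.31. In summed TPM the 11 genes were at 868 ± 57.4 in control and 865 ± 77.1 in EtP, a ratio of 0.997 that was 1.57 when scaled CPM per kb was summed in its place. Sf3b1 alone accounted for 307 ± 73.3 and 422 ± 47.2 TPM. Among 16 other U2-associated genes 5 were higher and 2 lower, or 31.25% and 12.5%, beside 12.5% and 18.1% of all tested genes. Phf5a, also a subunit of SF3b but outside the name rule, rose from 289 ± 77.5 to 496 ± 70.4 CPM (0.78 ± 0.24; edgeR adjusted p = 0.0316). Rbm17 rose by 1.74 ± 0.21 and the helicase Ddx42 by 1.29 ± 0.21. U2af1l4, a relative of the small U2AF subunit, fell by 0.98 ± 0.23 on the log2 scale. It did not pass with EtP replicate 2 left out (edgeR adjusted p = 0.0588). With library size alone Phf5a was at 0.06 and Ddx42 at 0.55, and neither passed (edgeR adjusted p = 0.826 and 0.0698).

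Of the members in the tri-snRNP Prpf3 of U4/U6 and Prpf6 of U5 rose. Prpf3, a protein that clamps the U4/U6 duplex, had 20.5, 21.2 and 23.4 CPM in control and 101, 77.6 and 87.3 CPM in EtP. That is 4.08-fold higher, with a log2 fold change of 2.03 ± 0.22 (edgeR adjusted p = 0.000102), and the gene lies on chr3:95830124-95855885 of mm10. Its U4/U6 partners Prpf4 and Prpf31 did not pass, at -0.27 ± 0.29 and -0.09 ± 0.26. Prpf6, a scaffold that bridges U5 and U4/U6, had 97.6, 89.4 and 96.1 CPM in control and 272, 262 and 273 CPM in EtP (1.51 ± 0.19; edgeR adjusted p = 0.000299). The libraries of each group lay close together, and the gene lies on chr2:181591868-181655660 of mm10. Prpf8, the protein at the heart of the active centre, did not pass at 16.9 ± 4.96 CPM in control and 21.5 ± 1.52 in EtP. Among 13 other U5 and tri-snRNP genes 2 were higher, or 15.4%, beside 12.5% of all tested genes. The recycling factor Sart3 rose by 1.45 ± 0.26 and the GTPase Eftud2 by 1.13 ± 0.33. Eftud2 did not pass with control replicate 2, EtP replicate 1 or EtP replicate 3 left out (edgeR adjusted p = 0.0544 to 0.0913). With library size alone Sart3 and Eftud2 did not pass (edgeR adjusted p = 0.0586 and 0.383). Snrnp200, the helicase that unwinds U4 from U6, did not pass at 0.61 ± 0.26, but it passed with DESeq2 (DESeq2 adjusted p = 0.0384). By DESeq2 4 of the 13 genes were higher and 0 lower.

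**Figure D4:**
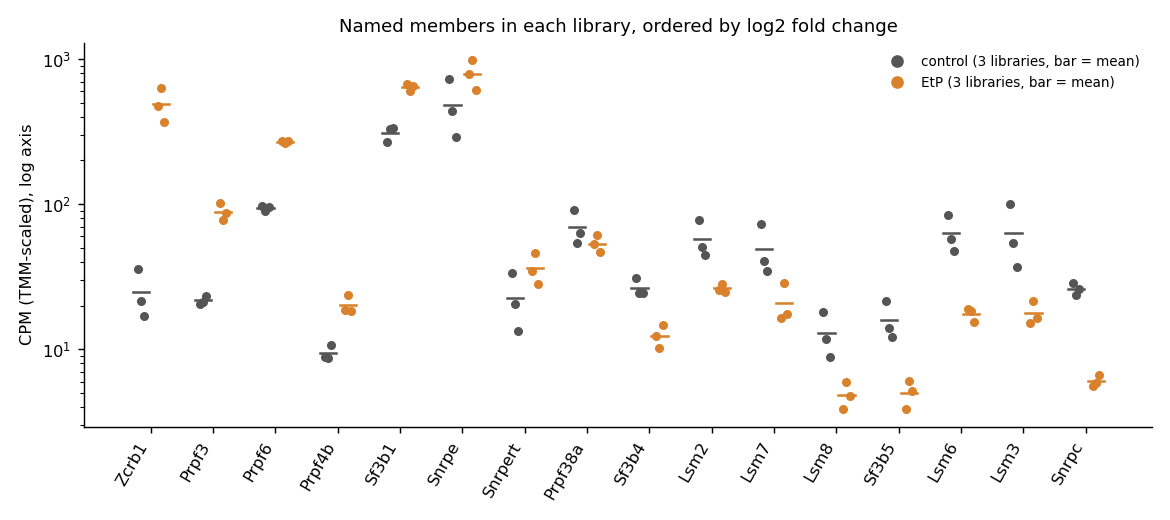
CPM of the members named in full in each library on a log axis, ordered from the largest log2 fold change to the lowest; grey points are the 3 control and orange points the 3 EtP libraries, and bars are means. Zcrb1, Prpf3 and Prpf6 lie apart at the left, and Snrpe, Snrpert and Prpf38a overlap between groups.

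Proteins of activation and catalysis gave 1 higher and 1 lower of 5, or 20% each, beside 12.5% and 18.1% of all tested genes. Prpf4b, a kinase that acts on tri-snRNP proteins, had 8.82, 8.67 and 10.6 CPM in control and 18.5, 23.5 and 18.2 CPM in EtP (1.10 ± 0.24; edgeR adjusted p = 0.00631), and its call was lost with library size alone (edgeR adjusted p = 0.25). Prpf19, the ubiquitin ligase at the core of the Prp19 complex, fell from 27.4 ± 1.96 to 15.3 ± 3.3 CPM (-0.83 ± 0.24; edgeR adjusted p = 0.0227). It did not pass with control replicate 2, EtP replicate 1 or EtP replicate 2 left out (edgeR adjusted p = 0.104 to 0.127). Prpf38a, a factor of the B complex, had 91.3, 54.2 and 63.4 CPM in control and 52.8, 61.1 and 46.7 CPM in EtP. The groups overlapped, and it did not pass (-0.38 ± 0.25). Prpf38b and Prpf18, a factor of the second catalytic step, did not pass at 0.61 ± 0.24 and 0.22 ± 0.23. Prpf38b passed with RLE scaling (edgeR adjusted p = 0.0411) and with DESeq2 (DESeq2 adjusted p = 0.0224). Either of these gave 2 higher and 1 lower in this class. The groups of Prpf38b did not overlap in CPM but overlapped in TPM, and with library size alone it was at -0.13.

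Zcrb1 is a zinc-knuckle RNA-binding protein of the U11/U12 di-snRNP. It had 82.2, 62.6 and 54.4 TPM in control and 739, 1047 and 680 TPM in EtP. In counts this was 597, 407 and 260 in control and 4946, 5741 and 4419 in EtP, and in CPM 35.8, 21.5 and 16.9 and 477, 634 and 366. The log2 fold change was 4.31 ± 0.35, or 19.9-fold, and 3.60 with library size alone. The gene lies on chr15:93386097-93398334 of mm10, and no near-identical copy or overlapping exon was found for it. In control its neighbours in TPM were Sf3a3 at 70.9 and Sf3a1 at 63.1, and in EtP only Snrpe and Snrpg had more TPM among the members. Other proteins of the minor spliceosome did not share this size of difference. Of 12 tested genes 3 were higher and 1 lower, or 25% and 8.33%, beside 12.5% and 18.1% of all tested genes. Zrsr2, which recognises the end of minor introns, rose from 21.2 ± 2.06 to 59.8 ± 11.9 CPM. Rbm48 rose by 1.09 ± 0.28 and Snrnp48 by 1.14 ± 0.22 on the log2 scale. With library size alone Rbm48 and Snrnp48 did not pass (edgeR adjusted p = 0.214 and 0.153). Zrsr1 fell from 2.97 ± 1.03 to 0.492 ± 0.22 CPM. The U11/U12 proteins Rnpc3, Pdcd7 and Snrnp25 did not pass, at 0.47 ± 0.25, 0.41 ± 0.25 and -0.73 ± 0.51, and Snrnp35 was too rare to be tested. Zmat5 of the same class did not pass either, at -1.30 ± 0.48 (edgeR adjusted p = 0.0646). It was rare, at 3.61 ± 2.38 CPM in control and 1.46 ± 0.33 in EtP, and every EtP library lay below every control library.

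Around the core, 105 further spliceosome genes from a fixed list were read the same way. Of 103 tested 30 were higher and 11 lower, or 29.1% and 10.7%, beside 12.5% and 18.1% of all tested genes, and the median was 0.26 on the log2 scale. With library size alone there were 10 higher and 32 lower. The count of lower genes was 5 with EtP replicate 2 left out, 6 with EtP replicate 1 left out, and 7 with control replicate 2 or EtP replicate 3 left out. The B complex and Prp19 complex genes, which convert the assembled spliceosome to its active form, had 11 higher and 0 lower of 22 by edgeR, with a median of 0.69. DESeq2 gave 13 and 0, and at an unadjusted p below 0.05 edgeR gave 13 and 2. The 11 higher genes include Mfap1a and Mfap1b, which lie close together on chromosome 2. Near-identical copies were searched for the members only, not for these genes. Smu1 rose from 158 ± 33.8 to 1048 ± 84.2 CPM (2.73 ± 0.23; edgeR adjusted p = 2.21e-05) and Snw1 from 86.9 ± 6.36 to 388 ± 51.7 CPM (2.16 ± 0.21; edgeR adjusted p = 5.41e-05). Library size alone left 5 higher and 3 lower in this class, with a median of -0.04. Genes of catalysis and release gave 3 higher genes of 12. Among them Cwc25 rose by 1.96 ± 0.26 and Slu7 by 0.91 ± 0.20. With library size alone Slu7 was at 0.18 and did not pass (edgeR adjusted p = 0.468).

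Of the genes that assemble snRNPs 2 were higher and 7 lower of 15, or 13.3% and 46.7%, beside 12.5% and 18.1% of all tested genes, and their median was -0.72. The SMN complex loads Sm rings onto snRNAs. Smn1, its central protein, fell from 86.4 ± 29 to 40.6 ± 2.95 CPM (-1.09 ± 0.26; edgeR adjusted p = 0.0102; 0.0546 and 0.0605 with EtP replicate 1 or 2 left out), and Gemin7 fell from 150 ± 28.4 to 38.1 ± 2.45 CPM (-1.98 ± 0.22; edgeR adjusted p = 0.000142). Gemin2, Gemin6, Gemin8, Strap and Wdr77 were the other lower genes. Gemin2 and Wdr77 were rare, at 1.17 ± 0.499 and 3.00 ± 0.47 CPM in control. Strap was close to the threshold (edgeR adjusted p = 0.0479). Phax, the adaptor that exports snRNAs, rose by 1.64 ± 0.28, and Coil, the Cajal body protein, was the other higher one. Coil was rare, at 2.06 ± 0.343 CPM in control and 3.98 ± 0.17 in EtP, and close to the threshold (edgeR adjusted p = 0.041). This class depended on single libraries, with 3 lower without control replicate 2 and 2 lower without EtP replicate 1 or without EtP replicate 2, and with 4 lower by DESeq2. Of 7 further LSm genes Lsm10, a subunit of the U7 ring used on histone RNA, fell from 44.1 ± 23.1 to 5.14 ± 0.733 CPM (-3.10 ± 0.38; edgeR adjusted p = 0.000253). Lsm12 rose by 0.68 ± 0.21, and its sign turned with library size alone (-0.06). It did not pass with control replicate 2 or any EtP library left out (edgeR adjusted p = 0.0737 to 0.126).

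**Figure D5:**
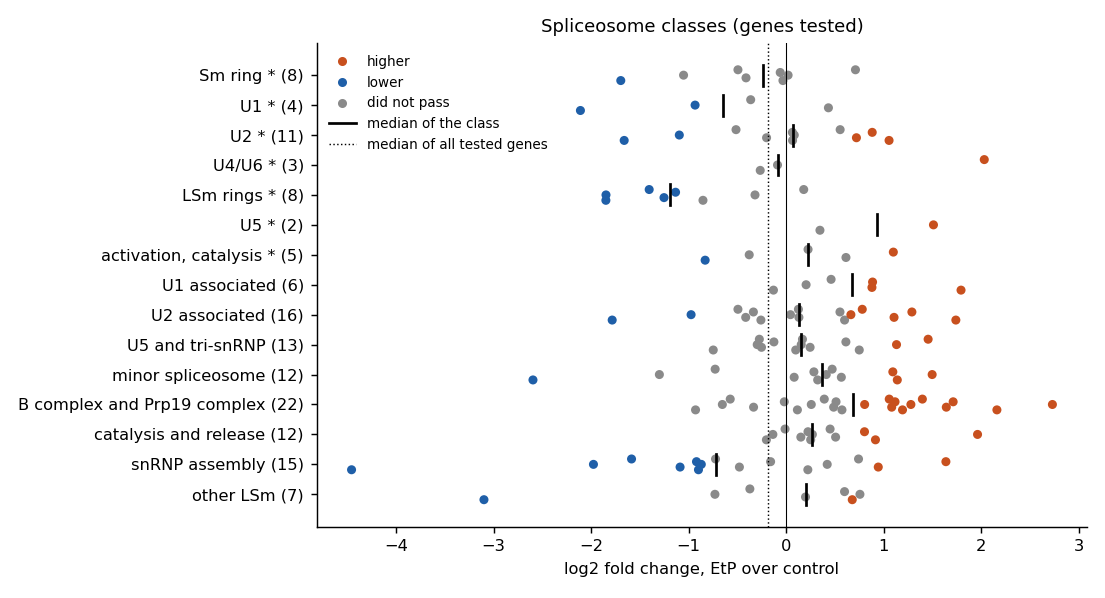
Log2 fold change of each tested gene by class, with members marked by an asterisk and the number of genes in brackets; points are coloured by call, black bars are class medians and the dotted line is the median of all tested genes at -0.19. LSm rings and snRNP assembly have medians of -1.19 and -0.72, and the B complex and Prp19 complex has 0.69.

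Transcript length went with the direction of calls in the whole table. The effective length, which is the transcript length left after the length of a fragment, was taken from the deposited tables. Of 850 tested genes under 500 bases 9.65% were higher and 32.6% lower, and of 1586 over 4000 bases 12.9% and 10.7%. From 500 to 1000 bases, where 15 members lie, 10.7% of 2239 genes were higher and 29.1% lower, and of these members 1 was higher and 6 lower. From 1000 to 2000 bases 4 of 13 members were higher and 3 lower, beside 14.2% and 17.6% of 5143 genes. Across the 43 members log2 effective length and log2 fold change had a Pearson r of 0.06 and Spearman's rho of 0.19, and across all tested genes 0.14 and 0.15; genes share these libraries and are not independent. The part of length in the results was not tested. Lengths also depend on the isoforms to which reads were assigned. For 8 of 43 members the mean length in both groups was under 50% of the longest annotated coding transcript in GENCODE M21, among them Sf3b1 with 1809 and 1714 of 6195 bases and Lsm6 with 1148 and 1486 of 3792 bases. For Lsm6 the TPM ratio of EtP over control was 0.125, where the fitted fold in CPM was 0.278, and library scaling and the longer length in EtP both enter the former.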

How the data were processed

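Smart-seq2 libraries, with cDNA primed by oligo-dT, were made from mouse embryos, 3 control and 3 EtP, and grouped by their titles. Per the submitters' processing notes cutadapt 1.16, STAR and the mm10 build were used; the counting program, its annotation and the STAR version were not given in the sources used here. Per the file headers, the authors deposited an expected count for each gene, which divides reads between transcripts and genes and need not be whole, and TPM, which divides it by effective length and has the same sum in every library. The authors also deposited FPKM values, not used here.

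Expected counts were rounded and tested with edgeR 4.0.16 (R 4.3.3): filterByExpr, TMM scaling, a robust quasi-likelihood fit on group over all 6 libraries, and Benjamini-Hochberg adjustment over 14373 genes with a threshold of 0.05. The standard error of a log2 fold change is its size over the root of F. CPM is per TMM-scaled library size; control libraries had TMM factors from 1.198 to 1.385, EtP libraries from 0.7378 to 0.833. The script was tested on simulated data with few changed genes and a fixed spread. There 11.1% of the tested 2-fold changes and 88.1% of the 4-fold changes were called. These rates need not hold for these libraries, and genes that did not pass are not shown to be unchanged. The other settings tried were scaling by RLE, by the upper quartile and by library size, no filter, a filter of 10 CPM in 3 libraries, a threshold of 0.01, DESeq2 1.42.0, voom and limma 3.58.1 on log2(TPM + 1), the replicate number as block, and leaving out each library; summing near-identical copies was added after seeing the data. Copies were found with blastn 2.17.0 on GENCODE M21 transcripts, whose positions are on mm10.

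Members named in full were Zcrb1, those called with an absolute log2 fold change of at least 1 and a mean of at least 5 CPM, and the most abundant of each particle, except 1 member that enters the counts and sums but is not reported here; others are given with means or fold changes. Of other spliceosome genes up to 2 called genes per class and direction with at least 5 CPM were named, and genes named beside them were chosen after their values were seen. The members and lists were chosen with earlier results of these data known.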

Additional observations from a re-analysis of the deposited data

How the results depend on the processing

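Scaling and single libraries set the counts. With library size alone there were 3 members higher and 24 lower, 10 and 32 other spliceosome genes, and 545 and 7617 of all tested genes. With limma on log2(TPM + 1) there were 3 and 21, 14 and 30, and 683 and 5680. A filter of 10 CPM gave 978 and 1454 of all genes, among 6986 tested. At an adjusted p of 0.01 by edgeR there were 7 members lower, 5 other spliceosome genes lower, and 918 higher and 1403 lower of all genes. Leaving out 1 library gave 6 (without control replicate 2 or any EtP library) to 13 (without control replicate 1) members higher. It gave 5 (without EtP replicate 1) to 11 members lower. Other spliceosome genes lower ranged from 5 (without EtP replicate 2) to 15 (without control replicate 3), with 6 without EtP replicate 1 and 7 without control replicate 2 or EtP replicate 3. All genes ranged from 1096 (without EtP replicate 1) to 2637 higher and from 1659 (without EtP replicate 1) to 2887 lower, with 1729 and 1731 lower without EtP replicate 2 and 3. The cause was not tested.

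With library size alone the log2 fold change turned to -0.00 for Snrpe, -0.03 for Snrpert and -0.06 for Lsm12. Sums of CPM per kb in place of TPM moved the ratio of EtP over control to 1.21 for the Sm ring, 0.929 for U1, 1.57 for U2, 2.39 for U4/U6, 0.398 for the LSm rings, 3.31 for U5, 0.959 for activation and catalysis and 19.1 for Zcrb1. For single genes 528 values kept direction and side of the threshold, 39 lost their call, 7 gained one and 3 turned. Of the members called, Prpf3 and Prpf6 among the 6 higher ones other than Zcrb1 and 5 of 11 lower (Snrpc, Lsm3, Lsm6, Sf3b5 and Sf3b4) kept their call in every alternative fit at the 0.05 threshold.

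The replicate numbers are shared by the groups, and the labels do not say whether they pair libraries. Deviations of same-numbered libraries correlated at 0.184, 0.00518 and 0.363. Control replicate 1 correlated at 0.152 with EtP replicate 2, and control replicate 2 at 0.0104 with EtP replicate 1. These values do not settle whether the numbers pair the libraries. With the number as a block there were 10 members higher and 12 lower, and 2295 and 3022 of all tested genes. Snrpe and Snrpert passed with the block, at 0.79 and 0.76 (edgeR adjusted p = 0.0095 and 0.0244).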
